A study of Mus musculus with 6 samples.

Results

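The chaperonins of mouse neural stem cells (NSCs) were followed through 10 genes: the 8 subunit genes Tcp1, Cct2, Cct3, Cct4, Cct5, Cct6a, Cct7 and Cct8 of the cytosolic chaperonin CCT (also called TRiC), and the 2 mitochondrial chaperonin genes Hspd1 (HSP60) and Hspe1 (HSP10). They were picked by name, with earlier results of these data known, and are 10 of the 14665 genes in the gene table. All 10 were among the 11104 genes that passed the filter on low counts. In mm10, Hspd1 (ENSMUSG00000025980) spans chr1:55077835-55088243 on the minus strand and Hspe1 (ENSMUSG00000073676) chr1:55088132-55091307 on the plus strand, whereas the CCT genes lie on 8 different chromosomes, with Cct2 (ENSMUSG00000034024) at chr10:117051001-117063814 on the minus strand.

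The study asked how the RNA of NSCs changes after hypoxia/reoxygenation (H/R), a culture model of ischemia and reperfusion. The H/R group was wild-type C17.2 cells held at 5% oxygen for 12 h and then returned to standard oxygen for 48 h, and the control group was wild-type C17.2 cells labelled control, with 3 libraries in each. Total RNA was depleted of ribosomal RNA before sequencing. C17.2 is a single immortalized mouse NSC line, and the labels do not state if the replicates were separate cultures, so p-values refer only to the spread among the 6 libraries, which may be technical.

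Gene counts per library were 15639751 to 16830389 in the H/R group and 7267809 to 8371882 in the control group. Levels are given as CPM, the count of a gene relative to its library's total, after TMM scaling, which corrects the totals for differences in composition. The NSC markers Nes, Vim, Sox2, Notch1 and Msi1 were each above 1 CPM, and Sox1, Pax6 and Fabp7 were not listed in the gene table. No astrocyte or microglia marker averaged 1 CPM, whereas the 5 fibroblast and mesenchyme markers summed to 4220 to 5420 CPM in the H/R group and 4470 to 6270 CPM in the control group. In RNA from whole cultures, fewer expressing cells and less RNA per cell cannot be told apart.

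Chaperonins are ring-shaped protein complexes that enclose an unfolded protein and let it fold in a closed chamber. CCT is built of paralogous subunits that each hold a fixed place in the ring, and it is known above all for folding actin and tubulin, the subunits of the cytoskeleton. In the mitochondrial matrix the ring is formed by Hspd1 and its lid by Hspe1, and together they fold imported proteins. The genes Hspd1 and Hspe1 lie head to head, and both are known targets of the heat shock factor HSF1, which binds repeats of the heat shock element.

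The start region of the mitochondrial pair is shown because windows of both genes share it and both were lower after H/R. Of the 10 genes, 9 had a window in the RefSeq promoter table (GRCm38.p6, 250 bases before to 50 after a start), with 12 windows in all, and Cct4 had none. The Hspe1 window, chr1:55087898-55088197 on the plus strand, is given with the heat shock element cores in capitals:
Hspe1: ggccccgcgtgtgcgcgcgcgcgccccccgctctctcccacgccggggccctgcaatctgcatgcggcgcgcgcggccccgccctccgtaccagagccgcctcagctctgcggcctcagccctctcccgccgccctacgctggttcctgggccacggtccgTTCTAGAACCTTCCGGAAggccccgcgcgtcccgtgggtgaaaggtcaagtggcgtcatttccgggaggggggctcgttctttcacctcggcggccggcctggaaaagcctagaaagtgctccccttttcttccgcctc
The capitals are 3 overlapping matches to the core (GAANNTTC or TTCNNGAA, both strands), at chr1:55088059-55088076. Of this window, 285 bases are also in 1 of the 2 Hspd1 windows, chr1:55087883-55088182 on the minus strand, which holds the same 3 matches. The other Hspd1 window, chr1:55088194-55088493, belongs to a start 95 bases inside Hspe1 and shares 4 bases with the Hspe1 window. The core was found in 5 of the 12 windows, with the matches shared by Hspe1 and Hspd1 counted in both. It was in 15.1% of all 32851 promoters of the same length. Matches are letters only and were not tested for binding.

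Among the CCT subunit genes, the core stood once in a window of Cct2, Cct5 and Cct6a, shown here with the core in capitals:
Cct2: ccccaagtgaaGAAGTTTCtagcaggacct
Cct5: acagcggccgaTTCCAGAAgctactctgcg
Cct6a: gcgtaagacttTTCGAGAAgaccccgcaga
The cores lie at chr10:117063410-117063417 (minus strand), chr15:31601873-31601880 (minus strand) and chr5:129787380-129787387 (plus strand). The CCAAT box (CCAAT, both strands) was in 5 of the 12 windows, against 37.4% of all promoters. The E-box (CACGTG) was in 1 window, that of Hspd1, against 7.15% of all promoters. The core that CHOP and ATF4 share (TGATGNAA, both strands) was in none of the 12, against 3.97% of all promoters.

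After H/R, 7 of the 10 chaperonin mRNAs were lower and none was higher: Hspe1, Hspd1, Cct2, Cct7, Cct4, Cct5 and Cct8 fell, and Tcp1, Cct3 and Cct6a did not pass the test (quasi-likelihood test of edgeR, Benjamini-Hochberg adjustment over all genes tested, threshold 0.05). At the same threshold 19.0% of all genes tested were lower and 18.8% were higher. No member was higher at an unadjusted p under 0.05 either, nor by DESeq2 or edgeR's exact test. In the same 7 genes every H/R library lay below every control library, which was the case for 24.0% of all genes. The study itself called genes at an unadjusted p of less than 0.05 with a change of 2-fold or more, and there 1 member was lower, Hspe1, against 5.37% of all genes. The median log2 fold change was -0.36 over the CCT subunits and -1.02 over the mitochondrial pair, against 0.01 over all genes tested.

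**Figure D1:**
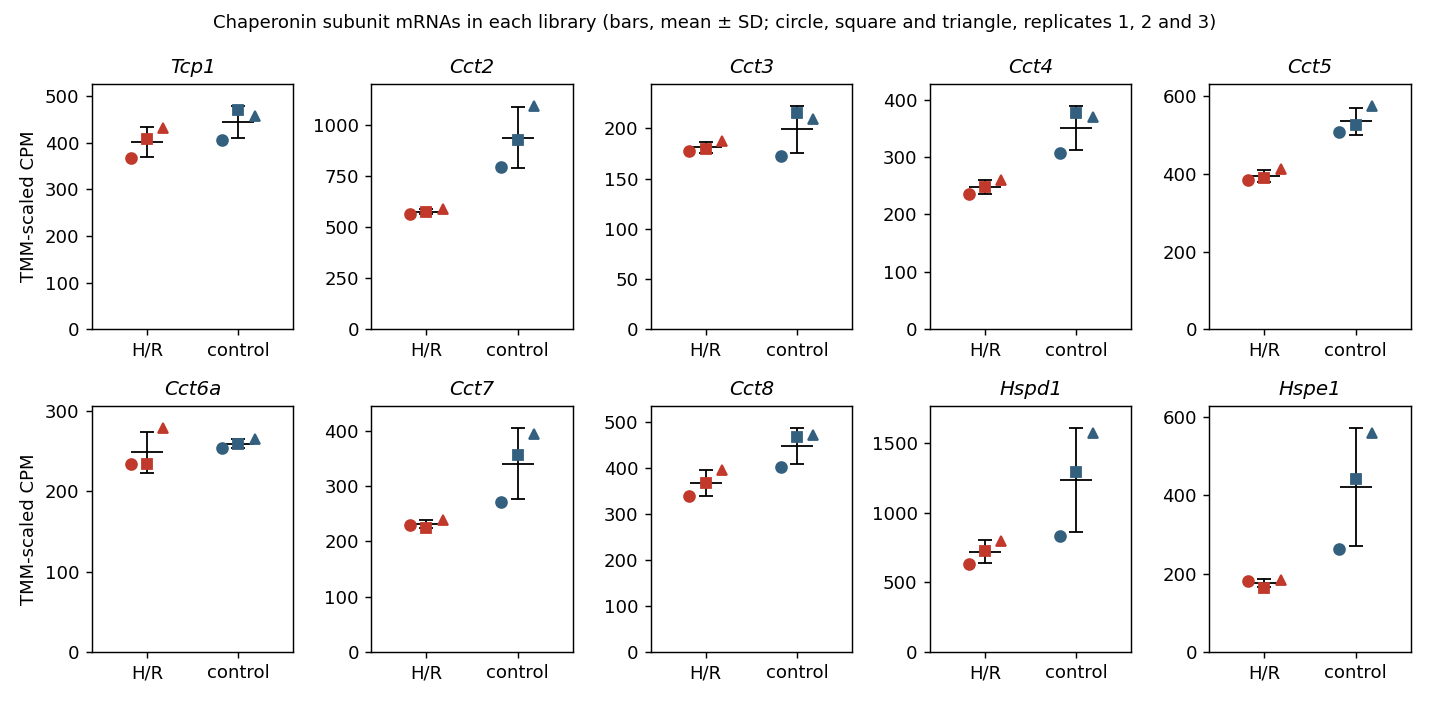
Each panel shows 1 chaperonin gene, with TMM-scaled CPM on the vertical axis from 0 and the 3 H/R libraries (red) left of the 3 control libraries (blue); bars are the mean ± SD. The groups stand apart in 7 panels and overlap in those of Tcp1, Cct3 and Cct6a, and control replicate 1 is the lowest control in all 10.

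Among the CCT subunits the largest change was that of Cct2, the beta subunit. Cct2 had 563, 577 and 590.5 CPM in H/R replicates 1, 2 and 3, against 797, 928 and 1095 CPM in the control replicates. The H/R libraries lay within a range of 1.05-fold and all below the control libraries, which spread over 1.37-fold. Its log2 fold change was -0.70 ± 0.10 (SE), with an adjusted p of 0.000166 in edgeR's quasi-likelihood test.

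Cct7, the eta subunit, had 230, 224 and 239 CPM in the H/R libraries, against 271, 357.5 and 395 CPM in the control libraries. The groups did not overlap, and control replicate 1 was much nearer to the H/R libraries than control replicates 2 and 3 were. Its log2 fold change was -0.56 ± 0.12 (SE; edgeR's quasi-likelihood test, adjusted p = 0.00239).

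Cct4, the delta subunit, had 236, 247.5 and 261 CPM in the H/R libraries, against 306.5, 376 and 369 CPM in the control libraries. All H/R values were below all control values, with a log2 fold change of -0.50 ± 0.10 (SE; edgeR's quasi-likelihood test, adjusted p = 0.00118).

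Cct5, the epsilon subunit, had 385, 388 and 412 CPM in the H/R libraries, against 506.5, 525 and 575 CPM in the control libraries. Both groups were tight and stood apart, with a log2 fold change of -0.44 ± 0.08 (SE; edgeR's quasi-likelihood test, adjusted p = 0.000944).

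Cct8, the theta subunit, had 339, 367 and 396 CPM in the H/R libraries, against 402, 467 and 473 CPM in the control libraries. The groups did not overlap, but the highest H/R library came close to the lowest control. The log2 fold change was -0.28 ± 0.09 (SE; edgeR's quasi-likelihood test, adjusted p = 0.0278). This call was lost without control replicate 2 (log2 fold change -0.26, adjusted p = 0.102), without control replicate 3 (-0.25, 0.0564), without H/R replicate 1 (-0.23, 0.141), without H/R replicate 2 (-0.28, 0.090), with offsets for transcript length and GC content (-0.21, 0.0545) and without scaling factors (-0.07, 0.561).

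The other 3 subunits overlapped between groups. Tcp1, the alpha subunit, had 367, 407 and 431 CPM in the H/R libraries and 406, 470.2 and 458 CPM in the control libraries (log2 fold change -0.15 ± 0.09 SE, adjusted p = 0.226 in edgeR's quasi-likelihood test). Cct3, the gamma subunit, had 177, 179 and 188 CPM in the H/R libraries and 172, 215.5 and 209 CPM in the control libraries (-0.13 ± 0.10, adjusted p = 0.316). Cct6a, a zeta subunit, had 235, 234 and 279 CPM in the H/R libraries and 254, 259.5 and 266 CPM in the control libraries (-0.06 ± 0.09, adjusted p = 0.640). In Tcp1 and Cct3 the overlap came from the control side, with control replicate 1 near or below the H/R libraries. Without that library the log2 fold change was -0.21 for Tcp1 (adjusted p = 0.049) and -0.23 for Cct3 (adjusted p = 0.0398). In that fit 9 of the 10 members were called lower, against 19.9% of all genes tested. In the fit without scaling factors the values of Tcp1, Cct3 and Cct6a were 0.07, 0.08 and 0.15, and none passed the test.

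The 2 mitochondrial chaperonins had the lowest log2 fold changes of the 10 genes, although that of Hspd1 lay within 1 SE of that of Cct2. Hspe1, the lid, had 181, 162.5 and 183 CPM in the H/R libraries, against 262, 441.5 and 560 CPM in the control libraries. The H/R libraries lay within 1.12-fold of each other, and the control libraries spread over 2.14-fold. The log2 fold change of Hspe1 was -1.26 ± 0.20 (SE; edgeR's quasi-likelihood test, adjusted p = 0.000252), a ratio of 0.417 between the H/R and control means, and 3.7% of all genes tested had a lower log2 fold change.

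Hspd1, the ring subunit, had 633, 724 and 797 CPM in the H/R libraries, against 832, 1292 and 1571 CPM in the control libraries. The groups stood apart, but H/R replicate 3 was close to control replicate 1. The log2 fold change was -0.78 ± 0.17 (SE), with an adjusted p of 0.00334 in edgeR's quasi-likelihood test, and the control libraries spread over 1.89-fold.

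**Figure D2:**
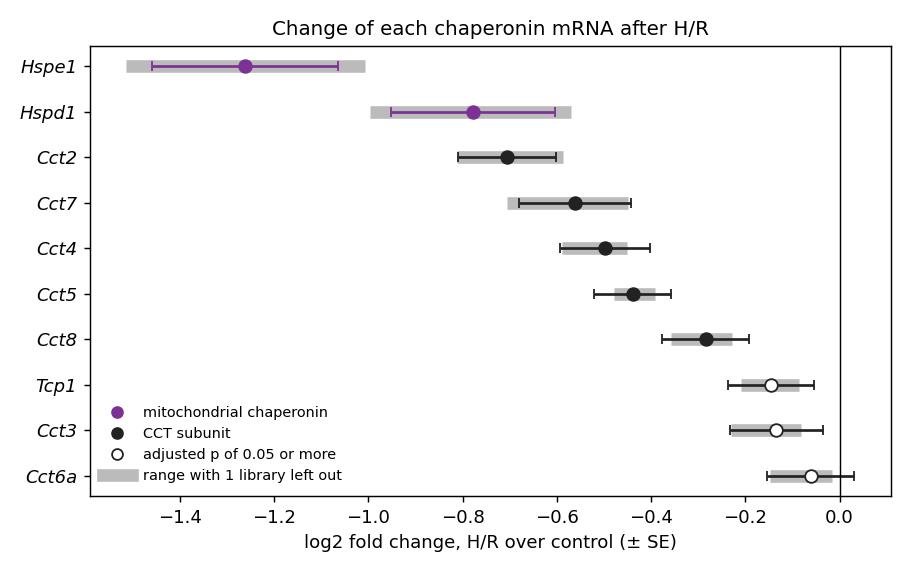
Log2 fold change of H/R over control on the horizontal axis for each chaperonin gene, with SE bars and, in grey, the range of the estimates when any 1 of the 6 libraries is left out. Hspe1 is at -1.26 and Hspd1 at -0.78, and the open circles of Tcp1, Cct3 and Cct6a mark an adjusted p of 0.05 or more.

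The size of the change depended on which control library was used. Control replicate 1 was the lowest of the controls in all 10 members, and control replicate 3 the highest in 7. Within the H/R group, replicate 3 was the highest library in all 10, and replicate 1 the lowest in most. Set against the mean of the H/R libraries, Hspe1 was 1.49, 2.51 and 3.19 times as high in control replicates 1, 2 and 3, Hspd1 1.16, 1.80 and 2.19 times, and Cct2 1.38, 1.61 and 1.9 times. With control replicate 1 as the only control library, an alternative run after the values were seen in which the spread comes from the H/R libraries alone, 4 members were called lower, Cct2, Cct4, Cct5 and Hspe1, against 15.9% of all genes tested in that fit. In that fit the adjusted p was 0.116 for Hspd1 (log2 fold change -0.23), 0.0692 for Cct7 (-0.24) and 0.287 for Cct8 (-0.15), while Hspe1 was at -0.59 (adjusted p = 0.000521). With control replicate 1, 2 or 3 as the only control, the median log2 fold change of the CCT subunits was -0.19, -0.38 or -0.45.

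The order of the control libraries was also seen in the cytosolic heat shock chaperones, but the share of all genes with this order was not counted. Of 13 tested cytosolic heat shock chaperones, the Hsp70 and Hsp90 families and their helpers, 12 were lower after H/R and none was higher. Of all genes tested, 19.0% were lower and 18.8% were higher. The median log2 fold change of the 13 was -0.76. Control replicate 1 was the lowest control and control replicate 3 the highest in all 13. With control replicate 1 as the only control library, fewer of them were called lower. Hspa1b, an inducible Hsp70, had 6.65, 5.17 and 5.41 CPM in the H/R libraries, against 20.5, 163 and 282 CPM in the control libraries. Its log2 fold change was -4.74 ± 0.66 (SE; edgeR's quasi-likelihood test, adjusted p = 0.000103). Dnajb1, an Hsp40 cochaperone, was at 74.4, 73.0 and 78.9 CPM in the H/R libraries and at 81.2, 240.0 and 412 CPM in the control libraries (-1.69 ± 0.38, adjusted p = 0.00326). Both sizes rested on control replicate 3, without which the log2 fold change was -3.99 for Hspa1b and -1.09 for Dnajb1, and both calls held without it. Hspa1a, the close copy of Hspa1b, was at -3.83 ± 0.58 (adjusted p = 0.000213), and reads of the pair may be split between them. It had 0.495, 1.31 and 1.295 CPM in the H/R libraries, against 3.995, 16.1 and 24.25 CPM in the control libraries. With so few reads in the H/R group, the size of its change is uncertain. With control replicate 1 as the only control library the calls of Dnajb1 (-0.12, adjusted p = 0.494) and Hspa1a (-1.96, adjusted p = 0.0816) were lost. Whether the levels of heat shock chaperone mRNAs in the control libraries bear on the fall of the chaperonins was not tested.

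The ER chaperones, which fold secreted and membrane proteins, were all lower after H/R as well, 12 of 12, against 19.0% of all genes tested. Their median log2 fold change was -2.91. They did not share the order of the controls: in none of the 12 was control replicate 1 the lowest control. Hspa5 (BiP) had 1431, 1504 and 1601 CPM in the H/R libraries, against 12490, 11710 and 12080 CPM in the control libraries (log2 fold change -3.00 ± 0.08 SE, adjusted p = 4.52e-11 in edgeR's quasi-likelihood test). Pdia4, a disulfide isomerase, was at -4.17 ± 0.11 and Calr, the lectin chaperone calreticulin, at -2.94 ± 0.08, both with an adjusted p of 4.52e-11. The ER chaperones took 0.892%, 0.887% and 0.972% of gene counts in the H/R libraries and 5.93%, 5.33% and 5.51% in the control libraries.

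**Figure D3:**
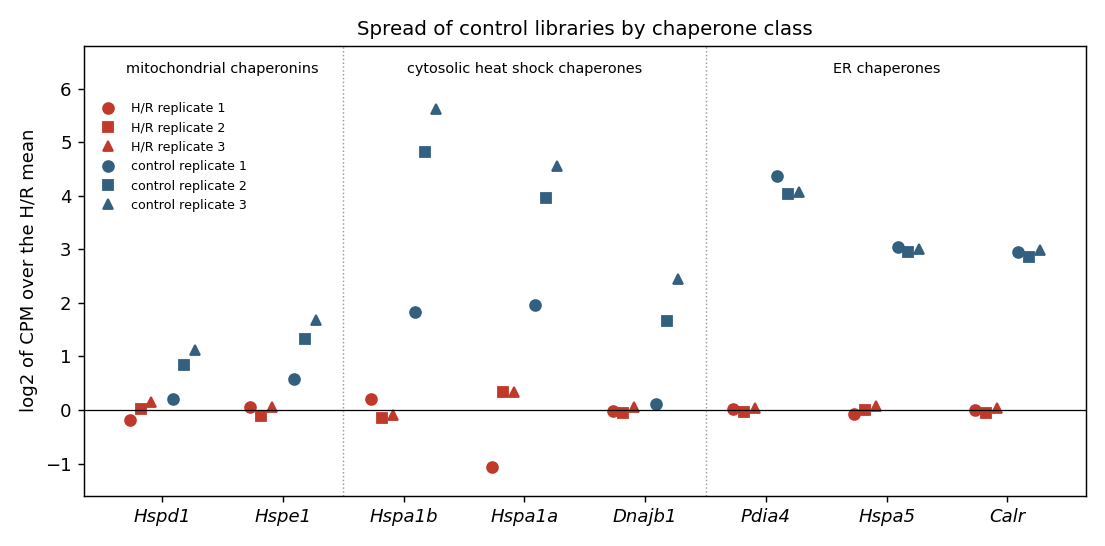
Log2 of the CPM in each library over the mean of the H/R libraries, for the mitochondrial chaperonins and the 3 cytosolic and 3 ER chaperones with the smallest adjusted p. The H/R mean of Hspa1a is only 1.03 CPM. H/R libraries are red and control libraries blue; the controls are spread for Hspd1, Hspe1, Hspa1b, Hspa1a and Dnajb1, with replicate 1 lowest, and lie close together for Pdia4, Hspa5 and Calr.

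As shares of all gene counts, the 8 CCT mRNAs made up 0.274%, 0.282% and 0.300% in the H/R libraries and 0.289%, 0.337% and 0.353% in the control libraries, so that H/R replicate 3 lay above control replicate 1. The mitochondrial pair made up 0.0880%, 0.0954% and 0.105% in the H/R libraries and 0.101%, 0.163% and 0.196% in the control libraries, and here too H/R replicate 3 was above control replicate 1. These shares are not scaled by TMM.

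Shares within the CCT mRNA pool do not depend on the scaling of libraries. Several did not overlap between the groups, but none passed the permutation test given below. Cct2 took 22.2%, 22.0% and 21.1% of the counts of the 8 subunits in the H/R libraries, against 25.6%, 25.8% and 28.5% in the control libraries. Tcp1 took 14.5%, 15.5% and 15.4% in the H/R libraries, against 13.0%, 13.1% and 11.9% in the control libraries. Cct6a took 9.27%, 8.91% and 9.97% in the H/R libraries, against 8.16%, 7.21% and 6.92% in the control libraries. The share of Cct2 was thus lower, and those of Tcp1 and Cct6a higher, in every H/R library than in any control library.

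Of the 8 shares, 6 did not overlap between groups: those of Cct2 and Cct4 were lower, and those of Tcp1, Cct3, Cct6a and Cct8 were higher in the H/R group. The differences of the means were -4.85 percentage points for Cct2 and -0.60 for Cct4, and 2.47 for Tcp1, 1.95 for Cct6a, 1.19 for Cct3 and 1.11 for Cct8. Each of the 6 had p = 0.1 in a two-sided exact permutation test, the smallest p that 3 libraries against 3 allow, and 0.133 after adjustment over the 8 shares, so none could pass the threshold. The shares of a library sum to a fixed total and are not independent of each other. The shares of Cct5 (14.9 ± 0.25% in the H/R group and 15.3 ± 0.87% in the control group, SD, n = 3 each, exact permutation p = 0.7) and Cct7 (8.73 ± 0.31% in the H/R group and 9.64 ± 0.84% in the control group, exact permutation p = 0.2) overlapped.

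**Figure D4:**
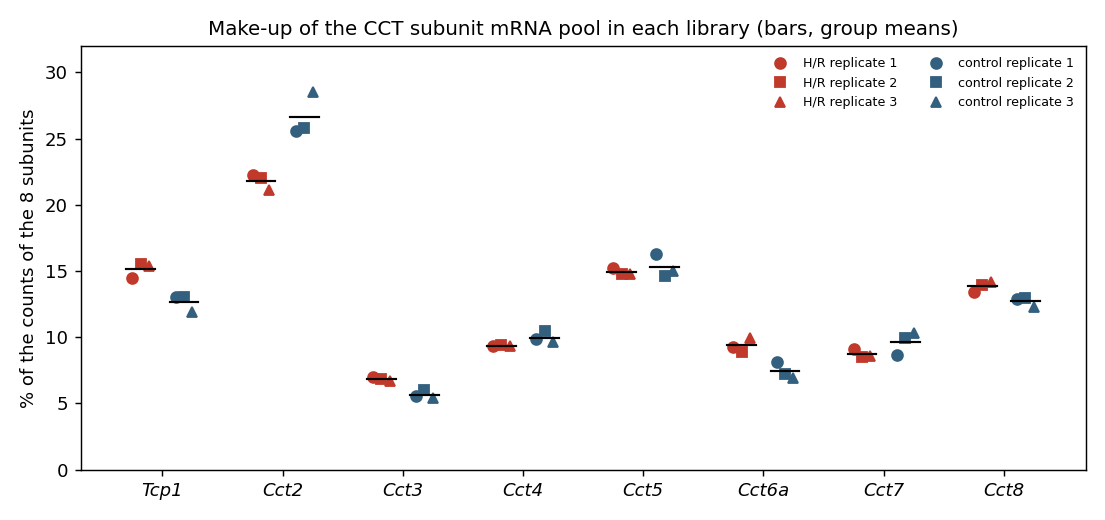
Share of each subunit in the summed counts of the 8 CCT subunit genes, in percent, with 1 point per library, H/R (red) left of control (blue), and lines at the group means. Cct2 lies at 21.1 to 22.2% in the H/R libraries, below the 25.6 to 28.5% of the control libraries, and Cct6a at 8.91 to 9.97%, above the 6.92 to 8.16% of the control libraries.

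Per kilobase of the longest coding transcript, Cct2 was the highest subunit mRNA in both groups, at 294 ± 7.04 CPM per kb in the H/R group and 480 ± 76.2 CPM per kb in the control group (SD, n = 3 each), followed by Cct5 at 213 ± 8.05 CPM per kb in the H/R group and 289 ± 19.0 CPM per kb in the control group. Tcp1 and Cct8 came next, at 164 ± 13.2 and 153 ± 11.8 CPM per kb in the H/R group and 182 ± 14.0 and 187 ± 16.4 CPM per kb in the control group, and this pair did not differ beyond its spread. The other 4 were at 91.7 to 101.5 CPM per kb in the H/R group and 101 to 141 CPM per kb in the control group, with Cct3 lowest in both. The ratio of the highest to the lowest subunit level per kb was 3.21, 3.25 and 3.18 in the H/R libraries, against 4.67, 4.48 and 5.29 in the control libraries. The levels of the 8 mRNAs were thus less unequal in each H/R library than in any control library.

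Within the mitochondrial pair, Hspd1 had 3.49, 4.46 and 4.36 counts for each count of Hspe1 in the H/R libraries, against 3.18, 2.93 and 2.80 in the control libraries. All H/R ratios were above all control ratios, and the log2 ratio differed by 0.46 (two-sided exact permutation p = 0.1, the smallest possible with 3 libraries against 3). The summed counts of Hspd1 and Hspe1 were 0.322, 0.338 and 0.350 times those of the 8 CCT genes in the H/R libraries, against 0.351, 0.482 and 0.555 times in the control libraries. The log2 of this ratio differed by -0.43 (H/R minus control, two-sided exact permutation p = 0.1), with H/R replicate 3 and control replicate 1 almost level.

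Several members share sequence with other genes. Hspd1 and Hspe1 overlap in 112 exon bases on opposite strands, 4.24% of the exon bases of Hspd1 and 7.6% of those of Hspe1. Hspd1 has 7 annotated pseudogene transcripts that match its mRNA at 90% identity or more over at least 150 bases, the longest over 1722 bases at 99.0%, and Hspe1 has 4, Cct7 has 2 and Cct3 has 1. Tcp1 shares 571 exon bases with Acat3 on the other strand, which had 99, 117 and 120 counts in the H/R libraries and 6, 5 and 2 in the control libraries. Cct6a shares 452 exon bases with Psph, a serine synthesis enzyme that was lower after H/R (log2 fold change -0.63, adjusted p = 0.000374 in edgeR's quasi-likelihood test). Tcp1 also shares 141 exon bases with Mrpl18 on the other strand, a mitochondrial ribosomal protein gene that was higher after H/R (0.80, adjusted p = 0.000407), with 1017, 914 and 1040 counts in the H/R libraries and 275, 271 and 185 in the control libraries. Cct8 shares 192 exon bases (6.22% of its own) with Usp16 and Cct7 shares 214 (3.16%) with Pradc1, both on the other strand. The strand setting of the counting was not given in the sources used here, so reads of these overlaps cannot be assigned to one gene, and the values of Hspd1, Hspe1, Tcp1, Cct6a, Cct7 and Cct8 are uncertain to that extent.

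Prefoldin, which hands nascent actin and tubulin to CCT, had 5 tested subunits: 3 fell and none rose (median log2 fold change -0.62). For this and the lists below, the shares over all genes tested were 19.0% lower and 18.8% higher. Vbp1 had 57.6, 46.6 and 45.5 CPM in the H/R libraries, against 89.1, 90.0 and 92.7 CPM in the control libraries (-0.86 ± 0.12 SE, adjusted p = 8.41e-05 in edgeR's quasi-likelihood test). Pfdn5 was at -0.62 ± 0.13 (adjusted p = 0.00174) and Pfdn2 at -0.72 ± 0.18 (adjusted p = 0.00616), a call lost with control replicate 2 as the only control library (-0.58, adjusted p = 0.070).

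Of 6 tested cochaperones and chaperonin-like genes, 3 were lower and none was higher, with a median log2 fold change of -0.37. Bbs10, a chaperonin-like protein linked to Bardet-Biedl syndrome, was at -0.93 ± 0.27 (adjusted p = 0.0148 in edgeR's quasi-likelihood test), and the phosducin-like modulators of CCT Txndc9 and Pdcl3 at -0.35 ± 0.10 (adjusted p = 0.0158) and -0.44 ± 0.15 (adjusted p = 0.0332). This count fell to 0 without H/R replicate 1 and to 1 without H/R replicate 2 or without scaling factors. Bbs10 was lost without H/R replicate 1 (adjusted p = 0.0647). Txndc9 was lost without control replicate 2 (0.0663), H/R replicate 1 (0.0572) or H/R replicate 2 (0.0643), and Pdcl3 without control replicate 1 (0.134), H/R replicate 1 (0.136), H/R replicate 2 (0.0514) or H/R replicate 3 (0.0797). With control replicate 3 as the only control library none of these 3 passed (adjusted p = 0.511 for Bbs10, 0.315 for Txndc9 and 0.124 for Pdcl3).

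Of 16 tested client genes, whose proteins need CCT to fold, 10 were higher, 1 was lower and 5 did not pass the test after H/R, with a median log2 fold change of 0.51. Cdc20, an activator of the anaphase-promoting complex, had 18.7, 20.1 and 21.01 CPM in the H/R libraries, against 7.35, 2.86 and 2.69 CPM in the control libraries (log2 fold change 2.20 ± 0.32 SE, adjusted p = 0.000143 in edgeR's quasi-likelihood test), and the log2 fold change was 2.84 without control replicate 1, its highest control. The gamma tubulin gene Tubg1 (0.88 ± 0.12, adjusted p = 9.58e-05) and the beta tubulin gene Tubb6 (0.83 ± 0.11, adjusted p = 6.54e-05) rose in every H/R library against every control library. Gnb1, a G protein beta subunit, was the 1 client that was lower (-0.38 ± 0.09, adjusted p = 0.00356), a call lost without scaling factors (-0.17, adjusted p = 0.127), and without control replicate 1 the lower clients were 2. The clients took 0.954%, 1.05% and 0.886% of gene counts in the H/R libraries and 0.765%, 0.694% and 0.658% in the control libraries. By far the highest client in these shares was Actb, with means of 5331 CPM in the H/R group and 4194 CPM in the control group (1.27-fold). The next highest, Actg1 and Tubb5, did not pass the test.

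Tubulin leaves CCT for a set of cofactors that join the alpha and beta subunits. Of the 6 tested, 3 were lower and none was higher (median log2 fold change -0.62): Tbcb (-1.23 ± 0.14 SE, adjusted p = 2.7e-05 in edgeR's quasi-likelihood test), Tbce (-1.18 ± 0.12, adjusted p = 1.08e-05) and Arl2 (-1.06 ± 0.22, adjusted p = 0.00218). Tbcb had 22.8, 23.4 and 18.7 CPM in the H/R libraries, against 56.6, 46.2 and 49.4 CPM in the control libraries. The H/R values of Tbcb were all under those of the controls. Arl2, a small GTPase that works with the cofactors, had 13.0, 13.3 and 8.95 CPM in the H/R libraries, against 19.2, 23.8 and 30.8 CPM in the control libraries. Its groups did not overlap, control replicate 1 was its lowest control and control replicate 3 its highest, and its call was lost with control replicate 1 as the only control library (-0.72, adjusted p = 0.0533).

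In mitochondria, the Hsp70 system that receives imported proteins before Hspd1 had 2 of 7 tested genes lower and none higher (median log2 fold change -0.21). Of all genes tested, 19.0% were lower and 18.8% were higher. Hspa9, the matrix Hsp70, had 520.5, 538 and 608 CPM in the H/R libraries, against 915, 1060 and 1097 CPM in the control libraries (-0.88 ± 0.09 SE, adjusted p = 1.17e-05 in edgeR's quasi-likelihood test). Its cochaperone Dnaja3 was at -0.55 ± 0.09 (adjusted p = 0.000520). Of 10 tested mitochondrial proteases, 5 were lower and none was higher (median -0.32). Without scaling factors 2 were lower, against 11.5% of all genes tested in that fit. Lonp1, which degrades damaged matrix proteins, was at -0.88 ± 0.10 (adjusted p = 1.47e-05), and Pmpcb and Spg7, a presequence peptidase and an inner membrane protease, were at -0.65 ± 0.10 (adjusted p = 0.000274) and -0.57 ± 0.14 (adjusted p = 0.00634). The call of Spg7 was lost without scaling factors (-0.36, adjusted p = 0.0555) and with control replicate 3 as the only control library (-0.48, adjusted p = 0.0623).

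Most of the import machinery did not pass the test. Of 17 tested genes, 1 was lower and 2 were higher (median log2 fold change 0.04), against 19.0% and 18.8% of all genes tested. The receptor Tomm20 fell (-0.97 ± 0.13 SE, adjusted p = 7.77e-05 in edgeR's quasi-likelihood test). The receptor Tomm22 (0.46 ± 0.11, adjusted p = 0.00491) and the channel Tomm40 (1.43 ± 0.41, adjusted p = 0.0142) rose. Tomm40 averaged 5.82 CPM in the H/R group and 2.14 CPM in the control group, and its call was lost without H/R replicate 2 (adjusted p = 0.0648) or H/R replicate 3 (0.0553). Without H/R replicate 2, 1 import gene was higher. Without scaling factors 8 import genes were higher. With 1 control library as the only control, Tomm40 was lost with replicate 1 (0.84, adjusted p = 0.168) and Tomm22 with replicate 3 (0.32, adjusted p = 0.0735).

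Of the transcription factors listed as regulators of chaperonin genes, 5 were tested, and 3 were lower with none higher (median log2 fold change -1.03). Ddit3 (CHOP), a factor of the ER and mitochondrial stress responses, had 55.9, 56.9 and 65.6 CPM in the H/R libraries, against 357, 580 and 689 CPM in the control libraries (-3.19 ± 0.19 SE, adjusted p = 1.22e-07 in edgeR's quasi-likelihood test). Atf4, its partner in the integrated stress response, was at -1.03 ± 0.08 (adjusted p = 9.67e-07) and Myc, a growth factor-induced transcription factor, at -1.43 ± 0.15 (adjusted p = 1.2e-05). The heat shock factor Hsf1 was at 0.31 (adjusted p = 0.1) and Hsf2 at -0.19 (adjusted p = 0.281), neither passing the test. Without control replicate 1, and without scaling factors, 1 regulator was higher.

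**Figure D5:**
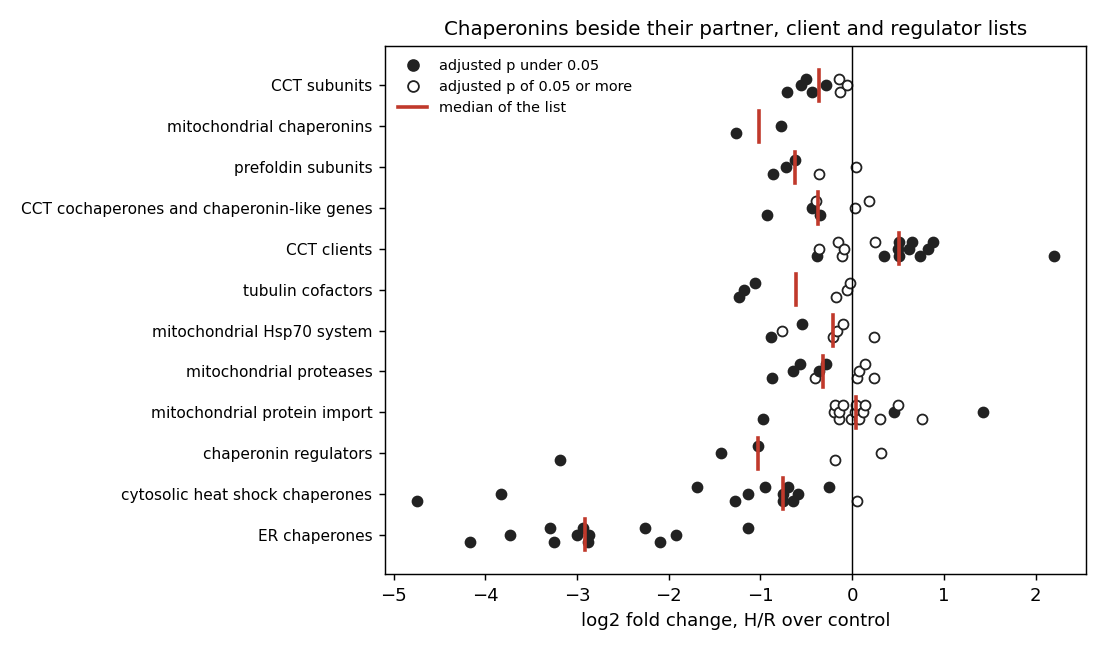
Log2 fold change of H/R over control for every tested gene of each list, 1 circle per gene, filled where the adjusted p was under 0.05, with the median of each list as a red line. The CCT clients have a median of 0.51 and the CCT subunits one of -0.36, and the ER chaperones lie furthest left with a median of -2.91.

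The deposited lncRNA table held 20 transcripts at the member genes, of which 12 passed the filter. Of these, 1 was lower and none was higher after H/R, against 2.26% lower and 2.67% higher among the 6779 lncRNA transcripts tested. It was ENSMUST00000134628 at Hspe1 (chr1:55088314-55089915, plus strand), with 47, 21 and 22 counts in the H/R libraries and 22, 68 and 92 counts in the control libraries. Control replicate 1 fell within the range of the H/R libraries once scaled (35.0 CPM, against 39.2, 18.9 and 19.0 CPM in the H/R libraries), and the other controls were above it. The log2 fold change was -2.07 ± 0.49 (SE, edgeR's quasi-likelihood test, adjusted p = 0.0169). The transcript overlaps exons of Hspe1 on the same strand, so that reads of the Hspe1 mRNA may be counted in it.

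The transcript with the next smallest adjusted p, uc009cpu.1 at Cct7, had 138, 187 and 152 counts in the H/R libraries and 119, 114 and 146 in the control libraries (log2 fold change -0.68 ± 0.25 SE, adjusted p = 0.144 in edgeR's quasi-likelihood test). When the totals and factors of the gene table were used, it passed as well (-0.91, adjusted p = 0.0326). The circRNA table held 2 circRNAs at member genes, 1 at Cct2 with 2 reads in H/R replicate 3 and 1 at Tcp1 with 2 reads in control replicate 3, and neither passed the filter.

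The genes whose profile over the 6 libraries was nearest to the mean CCT profile were Sh3glb1, Ap3b1, Etf1, Rnf11 and Rpap3. The root mean square distance of their centred log2 CPM to that of the CCT mean was 0.0234, 0.0263, 0.0289, 0.0290 and 0.0325. The CCT profile itself was -0.24, -0.19 and -0.09 in H/R replicates 1, 2 and 3 and 0.01, 0.23 and 0.285 in the control replicates, as centred log2 CPM. Sh3glb1, a membrane-curving protein, had 179, 178 and 191 CPM in the H/R libraries and 208, 237 and 244 CPM in the control libraries. Etf1, a release factor of translation, had 245.5, 238 and 267 CPM in the H/R libraries and 282, 323 and 340.1 CPM in the control libraries. These genes were found by their likeness, and their values are a description only.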

How the data were processed

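Sequenced RNA came from 3 H/R and 3 control libraries of C17.2 cells. The authors deposited integer counts per gene from HTSeq 0.9.1, after trimming (cutadapt 1.9.3) and alignment to mm10 (HISAT2 2.0.4). The deposited lncRNA and circRNA tables also hold counts; STAR 2.5.1b is named in the processing notes. The strand setting and annotation release are not given in the sources used here. Of the per-library columns, 18 with normalized values were not used, and no row of the gene table lacked a gene name.

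Each table was fitted whole with edgeR 4.0.16 in R 4.3.3: filterByExpr, TMM factors (1.07 to 1.08 for H/R, 0.920 to 0.938 for control) and the two-sided quasi-likelihood test without covariates, with p adjusted by Benjamini-Hochberg over all features tested and 0.05 as the threshold. The coefficient of variation between replicates was 0.144 for genes and 0.405 for lncRNAs. Reads copied by PCR and not marked by molecular identifiers are not independent. Shares and ratios of counts within a library were compared by exact permutation tests (scipy 1.17.1). Annotation came from GENCODE vM21 (14495 of 14665 IDs found), promoters from RefSeq, and pseudogene matches from blastn 2.17.0. The pipeline was tested on simulated counts. Replicates differed beyond sampling noise (chi-square per degree of freedom 8.99 to 29.0).

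The members, gene lists and tests were chosen with earlier results of these data known. Named were all members, from each list the 3 passing genes of smallest adjusted p at most in either direction, the 5 genes nearest to the CCT profile, and lncRNAs and circRNAs at members; Hsf1, Hsf2, overlapping genes and the lncRNA at Cct7 were added after their values were seen. Alternatives were the exact test of edgeR, DESeq2 1.42.0, RLE or no scaling factors, other filters, a block for the replicate number, leaving out each library, H/R counts thinned to the median control total, and offsets for length and GC content (splines with 5 degrees of freedom). Each control library alone was added after the values were seen.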

Additional observations from a re-analysis of the deposited data

How the results depend on the processing

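The 7 lower members numbered 6 to 9 when any 1 library was left out, against 14.7% to 19.9% of all genes tested. They numbered 6 or 7 under the other planned fits, against 11.5% to 20.7% of all genes tested. No member was higher in any of these fits. They numbered 4 with control replicate 1 as the only control library and 1 at the study's thresholds. The median log2 fold change of the CCT subunits, -0.36, was -0.15 without scaling factors and -0.19 with control replicate 1 alone, and -0.42 to -0.32 with 1 library left out. Without scaling factors the median of all genes was 0.22 instead of 0.01, all genes counted 1272 lower and 3704 higher instead of 2109 and 2087, and the genes of the pathway lists that were higher numbered 20 instead of 12. The lower pathway genes were 21, 15 without scaling factors, and 17 to 22 with 1 library left out (9 to 13 for the higher ones). At member genes, 2 lncRNA transcripts were lower with the totals of the gene table, against 1. The subunits whose shares did not overlap were 6, or 6 to 7 with 1 library left out. The difference in log2 Hspd1 over Hspe1 was 0.40 to 0.57 and that of the pair over CCT -0.62 to -0.29 with 1 library left out. The cause of these differences was not tested.

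With the replicate number as a block, 7 members were lower, as without it, and of the genes named 1 call was lost, Pdcl3 (adjusted p = 0.0502). Over all genes tested, same-numbered libraries did not deviate together (correlations of 0.04, -0.004 and 0.016), so the numbers were not treated as pairs. The CCT profile did rise from replicate 1 to replicate 3 in both groups. It was -0.24, -0.19 and -0.09 in the H/R libraries and 0.01, 0.23 and 0.285 in the control libraries. Genes outside CCT, among them Hspd1, Hspa9, Hspa8 and Hsp90aa1, also rose in this order in both groups, whereas Hspe1 did not. The share of all genes that did so was not counted. Thinning the deeper H/R libraries to the median control total left 7 members lower. With 3 libraries against 3, shares and ratios cannot reach p under 0.1.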
